A study of Homo sapiens with 15 samples.

Results

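The HOXB cluster is a row of homeobox genes on human chromosome 17, and its genes HOXB1 to HOXB9 were followed through cardiac differentiation of H1, a human embryonic stem cell line. The 9 genes were found by their symbols in a table of 60605 genes, and 8 of them reached an FPKM (a level scaled by exon length and library total) of at least 1 in at least 1 library. HOXB9 did not. The cluster was selected on measured values, namely the lower FPKM of HOXB genes in passaged and NP-IWP2 cells than in NP-ctrl cells of this table. Differences between these arms are therefore given as descriptions with no test, and the test used for the members is that of the days within the static arms.

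Bulk RNA sequencing covered 15 libraries of wild-type H1 cells, all treated with the WNT activator CHIR99021 on day 0 to form mesendoderm. Days 0, 1 and 2 had 1 library each, shared by every arm. From day 3 the NP-ctrl arm (not passaged, spontaneous differentiation), the NP-IWP2 arm (not passaged, with the WNT secretion inhibitor IWP2 added from day 2 to day 4) and the passaged arm (dissociated and replated on day 2, with no WNT inhibitor) each had 1 library on days 3, 5, 7 and 10. By the paper, insulin was given on day 1, before the arms parted. Passaging also split the cells to a lower density. The paper states that the ROCK inhibitor Y27632, which improved survival, was added in its later differentiation experiments. Effects of replating alone cannot be told apart from these. No group had a replicate, all cells came from 1 cell line, and intervals below cover counting error only. Library totals ranged from 13254723 to 20250115 counts.

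HOX genes encode transcription factors that give cells a position along the head-to-tail axis. In embryos the genes of a cluster tend to be switched on in their order along the chromosome, from the 3' end (here HOXB1) towards the 5' end (here HOXB9). HOX proteins bind DNA together with PBX and MEIS proteins, and retinoic acid and CDX factors are known activators of HOX genes. Early members of the HOXA and HOXB clusters mark the posterior part of the second heart field, from which the atria and inflow tract form. Polycomb proteins keep the clusters silent in embryonic stem cells.

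All 9 genes lie on the minus strand of chromosome 17 (build hg38), and 97.8 kilobases separate the first base of HOXB1 at 48528526 from the last of HOXB9 at 48626358, so HOXB1 has the lowest coordinate and is given position 1. HOXB1 (ENSG00000120094, 48528526 to 48531011), HOXB2 (ENSG00000173917, 48540894 to 48545109) and HOXB4 (ENSG00000182742, 48575507 to 48578350) are compact genes. HOXB3 (ENSG00000120093, 48548870 to 48604912) is annotated across HOXB4, HOXB5 (ENSG00000120075, 48591257 to 48593779) and most of HOXB6 (ENSG00000108511, 48595751 to 48604992). HOXB7 (ENSG00000260027, 48607232 to 48633572) is annotated across HOXB8 (ENSG00000120068, 48611377 to 48615292) and HOXB9 (ENSG00000170689, 48621156 to 48626358). By GENCODE release 44, 32.9% of the exonic bases of HOXB6 and 11.7% of those of HOXB3 are shared with another gene, while HOXB1, HOXB7, HOXB8 and HOXB9 share none. Whether strand was used in counting was not stated, so reads of shared exons cannot be assigned with certainty. In passaged cells HOXB6 had at most 2 counts in any library while HOXB3 had 302 to 635. Whether reads of shared exons were dropped in counting was not stated either. These counts therefore do not settle how such reads were assigned in any arm.

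Among the 9 promoters, RefSeq (GRCh38.p14) gave that of HOXB1 in the table used here. The 250 bases before its start, chr17:48531012-48531261 on the minus strand, are printed as the one member promoter at hand, of the gene that was first to pass 10 counts. Capitals mark the match to TGATNNAT, the core that PBX and HOX proteins bind together, searched on both strands. It begins 125 bases before the start.
HOXB1: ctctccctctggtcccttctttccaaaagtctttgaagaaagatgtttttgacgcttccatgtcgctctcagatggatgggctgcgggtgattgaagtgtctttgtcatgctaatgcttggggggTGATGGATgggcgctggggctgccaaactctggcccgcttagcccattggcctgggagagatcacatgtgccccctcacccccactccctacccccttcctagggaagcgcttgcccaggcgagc
In all, 7.4% of the 35116 promoter windows in that table, each running from 250 bases before to 50 after the start, held this motif. The HOXB1 window held no TTTATNG (a CDX core, in 9.73% of windows) and no AGGTCA (a retinoic acid receptor half-site, in 13.8%). Such matches describe letters in a window and show no binding.

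Up to day 2 the cluster was low. The summed FPKM of the 9 genes came to 0.1, 0.6 and 2.6 on days 0, 1 and 2. On day 0 the counts of HOXB2 to HOXB9 were 0, and HOXB1 had 3 counts. On day 1 HOXB1 led with 15 counts (FPKM 0.33), when no other member had more than 5. On day 2 HOXB2 had 85 counts (FPKM 1.71) and HOXB3 had 59 (FPKM 0.39), HOXB4, HOXB5 and HOXB6 had 4, 3 and 2, and HOXB7, HOXB8 and HOXB9 had 0. Of the 166 cluster counts on day 2, HOXB2 and HOXB3 held 86.7% (Wilson 95% interval 80.7 to 91.1).

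In NP-ctrl cells the summed FPKM then stood at 57.8, 222.3, 195.9 and 120.5 on days 3, 5, 7 and 10. It was 21.9, 149.1, 77.9 and 36.9 in NP-IWP2 cells, and 35.3, 45.1, 12.6 and 20.6 in passaged cells. The highest level of each of HOXB1 to HOXB8 was in an NP-ctrl library, on day 5 or day 7. Since these are bulk samples, fewer cells that express a gene and less RNA per cell cannot be told apart.

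**Figure D1:**
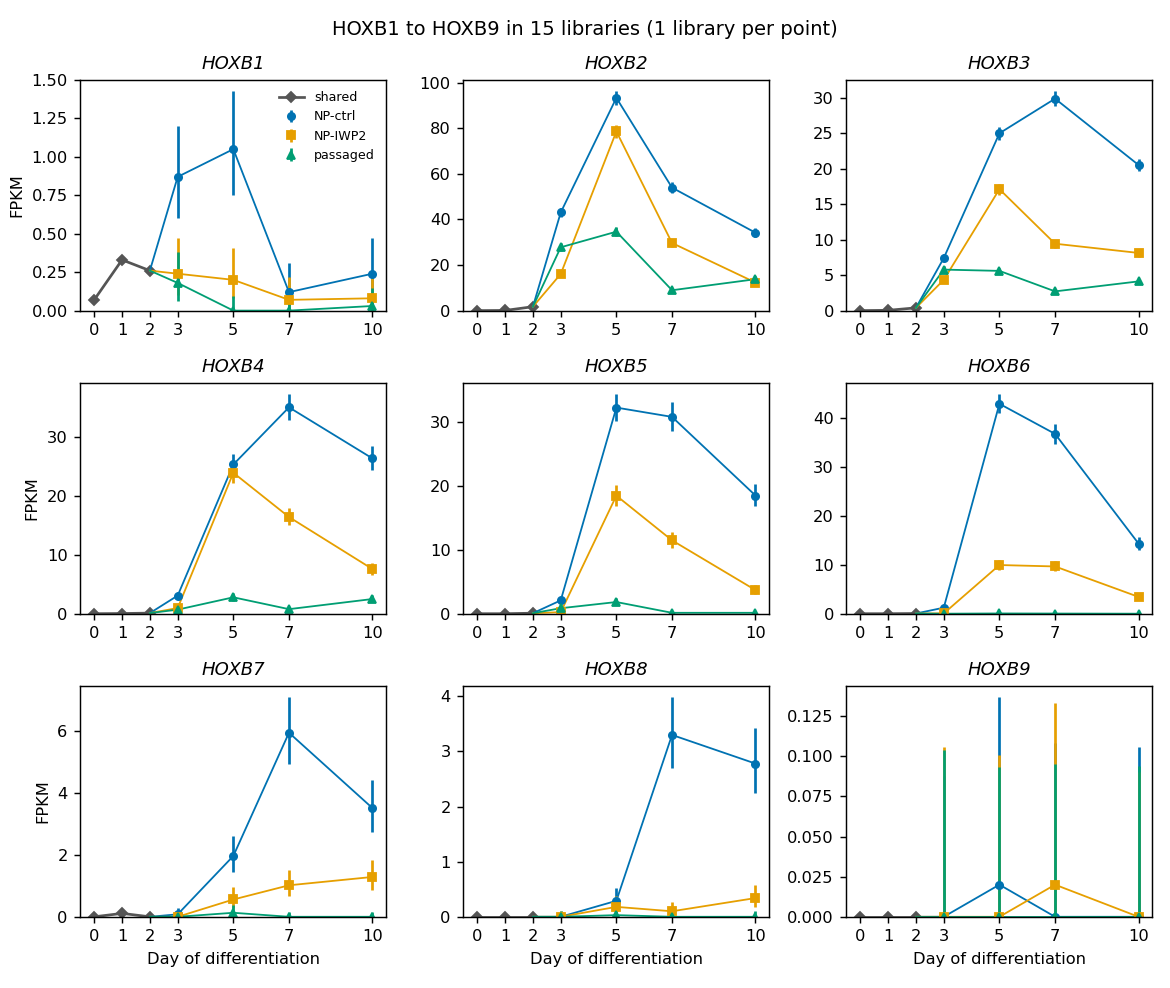
FPKM (vertical axes, each from 0 with its own range) of HOXB1 to HOXB9 against day of differentiation, with 1 library per point. Grey diamonds are the shared libraries, blue circles NP-ctrl, orange squares NP-IWP2 and green triangles passaged cells, and bars are exact 95% Poisson intervals of the counts. HOXB2 is highest on day 5 in every arm, HOXB8 appears mainly in NP-ctrl cells from day 7, and HOXB4 to HOXB8 lie near the axis in passaged cells.

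HOXB1, which patterns the hindbrain, stayed low and followed a course of its own. Its FPKM in NP-ctrl cells was 0.87, 1.05, 0.12 and 0.24 on days 3, 5, 7 and 10, from 35, 41, 4 and 8 counts. In NP-IWP2 cells it had 8, 7, 3 and 3 counts on those days, and in passaged cells 6, 0, 0 and 1. It was thus above 10 counts only on days 1 and 2 and in the NP-ctrl libraries of days 3 and 5.

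HOXB2 had the highest FPKM of the members in every library from day 2 on, with an FPKM of 43.1, 93.4, 54.0 and 34.2 in NP-ctrl cells on days 3, 5, 7 and 10. NP-IWP2 cells had 16.1, 78.6, 29.7 and 12.3, and passaged cells 27.8, 34.6, 8.94 and 13.8. On day 3 it was higher in passaged than in NP-IWP2 cells, on days 5 and 7 it was lower, and on day 10 the ratio of the passaged to the NP-IWP2 level was 1.12 (95% interval 0.986 to 1.27).

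HOXB3 had an FPKM of 7.41, 25.0, 29.9 and 20.5 in NP-ctrl cells on days 3, 5, 7 and 10. It had 4.34, 17.1, 9.43 and 8.13 in NP-IWP2 cells and 5.78, 5.60, 2.71 and 4.12 in passaged cells. On day 3 the passaged level lay between those of the static arms, and from day 5 the order was NP-ctrl, NP-IWP2, passaged.

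HOXB4, known for expanding blood stem cells when overexpressed, had an FPKM of 3.07, 25.3, 35.0 and 26.3 in NP-ctrl cells on days 3, 5, 7 and 10. NP-IWP2 cells had 0.96, 23.9, 16.4 and 7.57, and passaged cells 0.69, 2.78, 0.77 and 2.49. On day 5 the NP-IWP2 level was 94.5% of NP-ctrl (85.1 to 105), so no difference was detectable at this depth, and the arms separated on days 7 and 10.

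HOXB5, which has a role in the enteric nervous system, had an FPKM of 2.09, 32.3, 30.9 and 18.5 in NP-ctrl cells on days 3, 5, 7 and 10. NP-IWP2 cells had 0.24, 18.5, 11.5 and 3.70. Passaged cells had 0.86, 1.83, 0.14 and 0.14, so this gene reached its highest passaged value on day 5 and was at 4 counts on days 7 and 10.

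HOXB6 had an FPKM of 1.23, 43.0, 36.8 and 14.4 in NP-ctrl cells on days 3, 5, 7 and 10. NP-IWP2 cells had 0.06, 9.96, 9.67 and 3.44. In passaged cells it had 0, 2, 1 and 0 counts. By FPKM it ranked next after HOXB2 in the NP-ctrl libraries of days 5 and 7. On day 7 its counting interval (34.8 to 38.9 FPKM) overlapped that of HOXB4 (32.8 to 37.3), so their order there is not resolved.

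HOXB7, HOXB8 and HOXB9 are the last genes of this stretch, and HOXB8 is known to hold myeloid progenitors in an immature state. HOXB7 had 2, 47, 120 and 72 counts in NP-ctrl cells on days 3, 5, 7 and 10, with a highest FPKM of 5.96. It had 0, 12, 25 and 31 counts in NP-IWP2 cells and 0, 3, 0 and 0 in passaged cells. HOXB8 had 0, 11, 105 and 90 counts in NP-ctrl cells, with a highest FPKM of 3.30, then 0, 6, 4 and 13 in NP-IWP2 cells and 0, 1, 0 and 0 in passaged cells. HOXB9 had 1 count in NP-ctrl cells on day 5, 1 in NP-IWP2 cells on day 7 and none elsewhere. A count of 0 allows up to 3 counts, which for HOXB9 is an FPKM of 0.0573 to 0.0875 depending on the library.

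The question of the days was then tested in the static arms, with edgeR's quasi-likelihood test on the 8 NP-ctrl and NP-IWP2 libraries, arm as a block, and Benjamini-Hochberg adjustment over 21206 genes. From day 3 to day 5, 7 of the 9 members rose (8 were tested), while 7.76% of all genes tested rose. The log2 changes were 1.74 for HOXB2 (SE 0.30, edgeR adjusted p 0.00179), 1.9 for HOXB3 (SE 0.26, edgeR adjusted p 0.000377), 3.84 for HOXB4 (SE 0.40, edgeR adjusted p 5.29e-05), 4.76 for HOXB5 (SE 0.46, edgeR adjusted p 2.79e-05) and 5.46 for HOXB6 (SE 0.39, edgeR adjusted p 3.9e-06). HOXB7 rose by 4.77 (SE 0.78, edgeR adjusted p 0.00127) and HOXB8 by 6.52 (SE 1.9, edgeR adjusted p 0.0422). The day 3 counts behind these values were 2 and 0 for HOXB7 and 0 in both arms for HOXB8, so the sizes of these fitted changes depend on the prior count. Genes were tested if their FPKM reached 1 in any library. HOXB2 to HOXB6 had done so by day 3 in NP-ctrl cells. HOXB7 did so only in libraries of day 5 and later, and HOXB8 only in NP-ctrl libraries after day 5. HOXB7 and HOXB8 thus entered the test through later libraries where they were high, and their p-values are not read as evidence. HOXB1 did not pass, its log2 change being 0.08 (SE 0.67, edgeR adjusted p 0.999).

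The spread in this fit is that of day effects between 2 arms of 1 series of cultures. HOXB4 and HOXB6 passed under all 13 alternatives. HOXB8 did not pass without the NP-ctrl library of day 3, the NP-IWP2 library of day 5 or the NP-ctrl library of day 10. Limma on log2(FPKM + 1) called 4 members, HOXB3 to HOXB6, and edgeR on all 12 libraries, passaged arm included, called HOXB4, HOXB6 and HOXB7.

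From day 5 to day 7 HOXB2 fell by 1.16 on the log2 scale (SE 0.29, edgeR adjusted p 0.0433), where 1.73% of all genes tested fell. It did not pass without the NP-IWP2 library of day 5 (-0.58), the NP-ctrl library of day 7 (-1.03) or the NP-IWP2 library of day 7 (-1.29). For HOXB1 the log2 value was -2.40 (SE 0.81, edgeR adjusted p 0.152), HOXB7 of 1.28 (SE 0.48, edgeR adjusted p 0.213) and HOXB8 of 2.06 (SE 0.87, edgeR adjusted p 0.305). HOXB3 to HOXB6 lay between -0.44 and -0.13. From day 7 to day 10 no member passed in edgeR, where 0.349% of all genes fell. HOXB6 was nearest, at -1.43 on the log2 scale (SE 0.31, edgeR adjusted p 0.0527). It passed with DESeq2 and with no filter and when the NP-ctrl or the NP-IWP2 library of day 3 was left out. Of all genes 2786 had an unadjusted p under 0.05 in this step, and limma called no member.

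**Figure D2:**
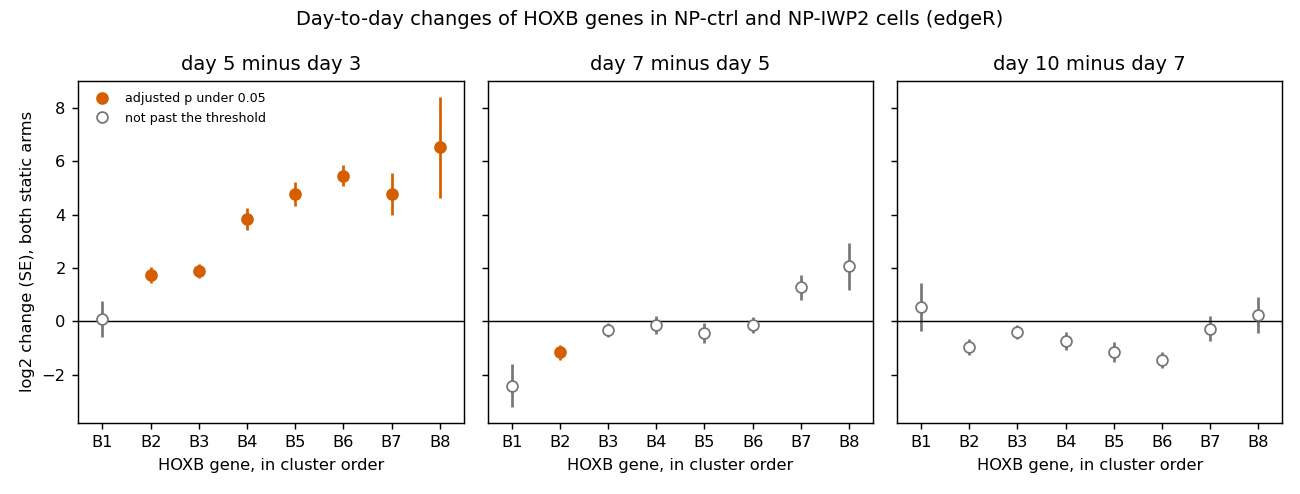
Fitted log2 change (vertical axis) of each HOXB gene, in cluster order (horizontal axis), from day 3 to 5, 5 to 7 and 7 to 10 over the NP-ctrl and NP-IWP2 arms, with bars of 1 standard error. Filled orange points passed an edgeR adjusted p of 0.05. In the left panel the changes run from 0.08 for HOXB1 to 6.52 for HOXB8.

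Whether onset followed position was then described. Onset was taken as the first sampled day with an FPKM of at least 1 and more than 3 counts. In NP-ctrl cells HOXB2 met this on day 2, HOXB3 to HOXB6 on day 3, HOXB1 and HOXB7 on day 5, HOXB8 on day 7 and HOXB9 on no day. Spearman's rho of onset day with position was 0.49 over these 8 genes and was lowered by HOXB1, which passed an FPKM of 1 only at its day 5 maximum. With onset at more than 10 counts, HOXB1 came on day 1, HOXB2 and HOXB3 on day 2, HOXB4 to HOXB6 on day 3 and HOXB7 and HOXB8 on day 5, and rho was 0.96. The members share libraries and some exons, so these values carry no p.

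In NP-IWP2 cells HOXB3 met the FPKM rule on day 3, HOXB4, HOXB5 and HOXB6 on day 5, HOXB7 on day 7, and HOXB1, HOXB8 and HOXB9 on no day (rho 0.94 over 6 genes). HOXB5 and HOXB6 thus came a sampled day later than in NP-ctrl cells by the FPKM rule. With onset at 10% of the highest FPKM of the gene in the arm, both came on day 5 in both static arms. HOXB6 also did so with a limit of 2. HOXB4 too came later by the FPKM rule, but its day 3 FPKM of 0.96, from 26 counts, lay just under the limit. With a limit of 0.5 or of more than 10 counts the onset of HOXB4 was day 3 in both arms. In passaged cells HOXB3 met the FPKM rule on day 3 and HOXB4 and HOXB5 on day 5, while HOXB1 and HOXB6 to HOXB9 never did (rho 0.95 over 4 genes). On day 3 HOXB4 and HOXB5 lay just under the limit there, at an FPKM of 0.69 and 0.86. With a limit of 0.5, of more than 10 counts or of 10% of the highest FPKM, both came on day 3 with HOXB3 or a day after it. Every arm therefore kept the order of onset from HOXB2 on by the FPKM rule, with ties between neighbours, and the arms differed in how far along the cluster the levels reached.

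A finer view of onset is the level on day 3 as a share of that on day 5, a measure chosen after the values were seen. In NP-ctrl cells it was 46.1% for HOXB2 (95% interval 43.5 to 48.9), 29.6% for HOXB3 (27.5 to 31.9), 12.1% for HOXB4 (9.76 to 15), 6.45% for HOXB5 (4.91 to 8.33) and 2.86% for HOXB6 (2.13 to 3.77). Each step along the cluster from HOXB2 to HOXB6 was lower than the one before, with no overlap of counting intervals. HOXB7 had 4.10% (0.483 to 15.7), a wide interval from 2 counts. HOXB1 had 82.3% (50.9 to 132).

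In NP-IWP2 cells the shares were 20.4% for HOXB2 (18.6 to 22.4), 25.4% for HOXB3 (22.8 to 28.2), 4.03% for HOXB4 (2.61 to 5.95), 1.29% for HOXB5 (0.472 to 2.83) and 0.571% for HOXB6 (0.0689 to 2.08). HOXB3 stood above HOXB2 there, and the intervals of HOXB4 and HOXB5 and of HOXB5 and HOXB6 overlapped. In passaged cells HOXB2 had 80.2% (73.7 to 87.3), HOXB3 103% (92.1 to 116), HOXB4 24.9% (14.3 to 41.4) and HOXB5 47.2% (27.3 to 79.1). HOXB2, HOXB3 and HOXB5 had thus come nearer to their day 5 level by day 3 in passaged cells than in the static arms, and that day 5 level was lower.

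**Figure D3:**
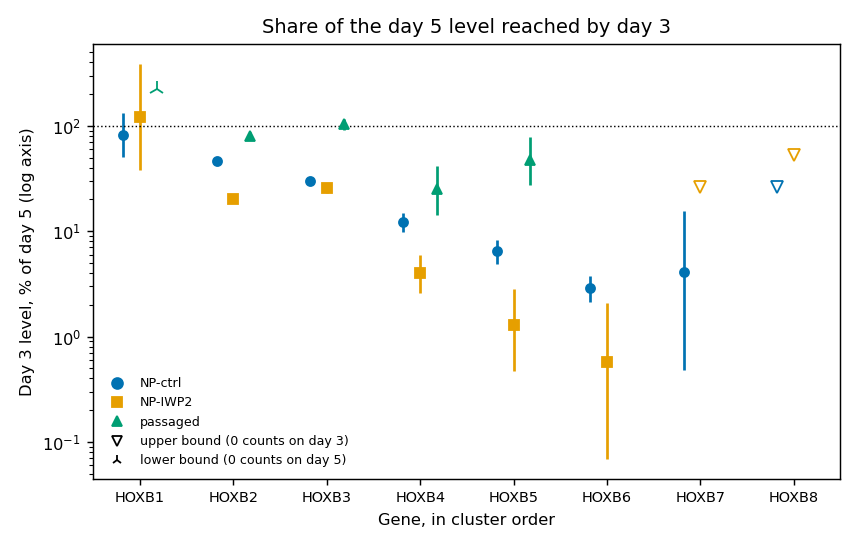
Level on day 3 as a percentage of the level on day 5 in the same arm (vertical log axis) for HOXB1 to HOXB8 in cluster order. Symbols mark the arm, bars are exact 95% intervals for counting error, and open triangles and 3-pointed marks are bounds where 1 of the libraries had 0 counts. NP-ctrl values run down from 46.1% for HOXB2 to 2.86% for HOXB6.

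The changes fitted in the static arms from day 3 to day 5 use the same libraries as the static shares above. They are therefore no separate evidence on the order. The sizes fitted for HOXB7 and HOXB8 depend on the prior count. Spearman's rho of the fitted log2 change with position was 0.98 over the 8 genes tested. It was 0.88 from day 5 to day 7, where HOXB1 and HOXB2 had the lowest changes and HOXB7 and HOXB8 the highest, and -0.07 from day 7 to day 10. These too were computed after the values were seen and are given as descriptions.

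Passaged cells were then set against NP-ctrl cells of the same day. On day 3, 2 members (HOXB4 and HOXB6) were lower by at least 1 on the log2(FPKM + 1) scale, as were 3.48% of the 21206 genes above the filter. On day 5 HOXB1 to HOXB7 were lower, against 4.42% of all genes. On days 7 and 10 HOXB2 to HOXB8 were, against 8.29% and 11.7%. No member was higher by this rule on any day. The cluster was picked for this difference, so the counts are not read as evidence. The threshold left HOXB1 just inside on day 5, at a difference of -1.04, and HOXB5 just outside on day 3, at -0.73.

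The order along the cluster was then described from the same values that chose the cluster, so it too carries no test. On day 5 the passaged level was 37.1% of NP-ctrl for HOXB2 (34.8 to 39.5), 22.4% for HOXB3 (20.5 to 24.4), 11% for HOXB4 (8.68 to 13.8), 5.66% for HOXB5 (4.2 to 7.49) and 0.117% for HOXB6 (0.0142 to 0.424). On day 7 the same genes stood at 16.6% (14.7 to 18.6), 9.08% (8.04 to 10.2), 2.19% (1.38 to 3.30), 0.465% (0.126 to 1.19) and 0.0696% (0.00176 to 0.389). On both days each gene from HOXB3 to HOXB5 was lower than its neighbour before it with no overlap of intervals. HOXB6 was lower again, with an interval apart from that of HOXB5 on day 5 and overlapping it on day 7.

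On day 10 HOXB2 stood at 40.3% (36.3 to 44.8), HOXB3 at 20% (18.1 to 22.2), HOXB4 at 9.47% (7.37 to 12) and HOXB5 at 0.763% (0.207 to 1.97), and HOXB6, with 0 counts against 503, was at least 190-fold lower. On day 3, a day after replating, the order was less regular. HOXB2 stood at 64.5% (59.5 to 69.9), HOXB3 at 78.0% (70.2 to 86.7), HOXB4 at 22.6% (13.0 to 37.1) and HOXB5 at 41.5% (24.3 to 68.4), and HOXB6 was at least 14.6-fold lower.

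HOXB7 and HOXB8 gave too few counts to extend this order. On day 7 HOXB7 was at least 45.2-fold and HOXB8 at least 39.6-fold lower in passaged cells, bounds set by the NP-ctrl counts and not comparable with the value of HOXB6. HOXB1 went against the order, since at the 3' end it had 0 counts in passaged cells on day 5 against 41, at least 13.3-fold lower. Over days 5, 7 and 10 together, with counts at or under 3 raised to 3, rho of the log2 ratio with position was -0.76 over HOXB1 to HOXB8, and 4 of these 8 values (HOXB1, HOXB6, HOXB7 and HOXB8) were such bounds. By single days it was -0.31, -0.26, -0.62 and -0.79 on days 3, 5, 7 and 10, so the order over the whole row, HOXB1 included, was weaker than that from HOXB2 to HOXB6.

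**Figure D4:**
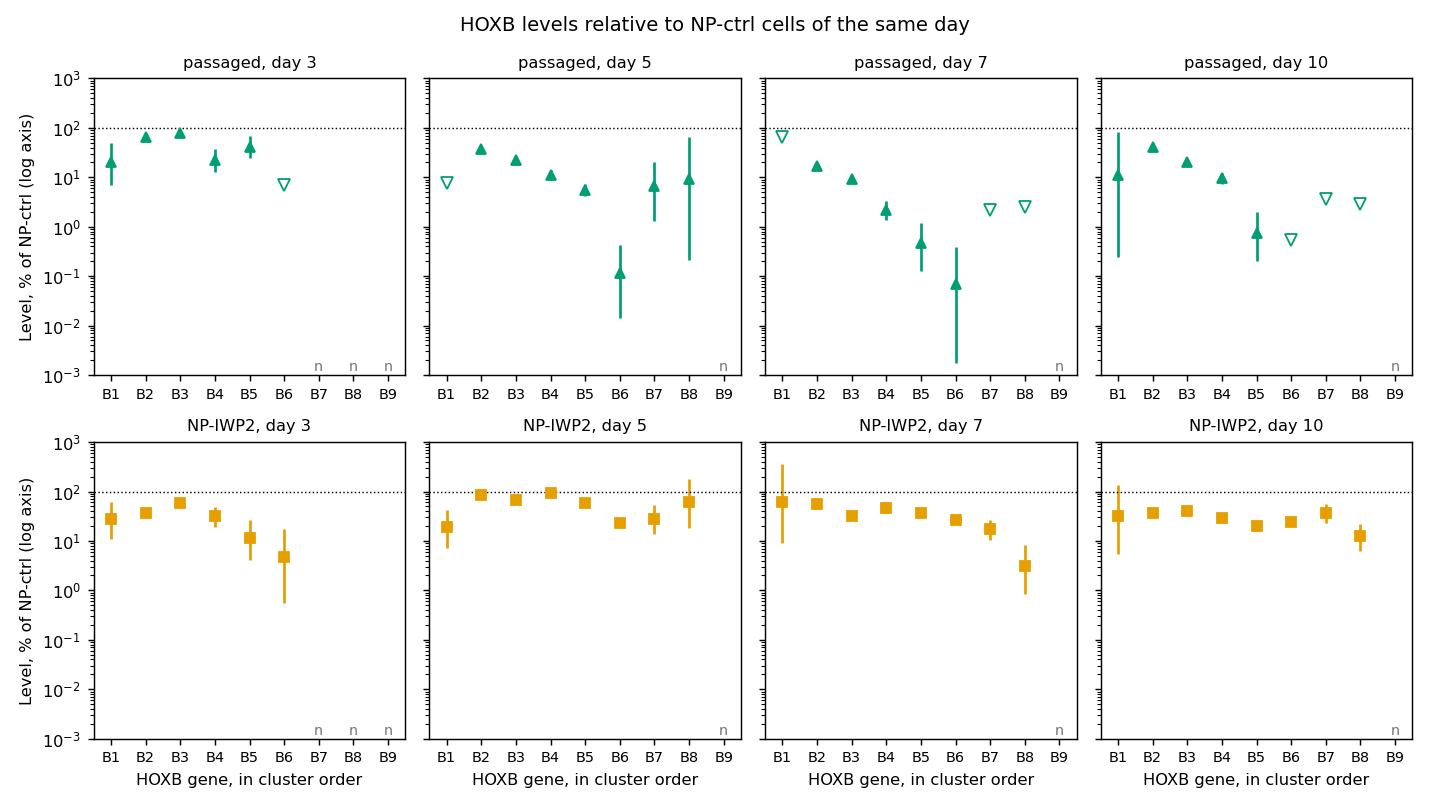
Level in passaged cells (top, green triangles) and NP-IWP2 cells (bottom, orange squares) as a percentage of NP-ctrl cells of the same day (vertical log axis), with HOXB1 to HOXB9 (B1 to B9) in cluster order. Bars are exact 95% intervals for counting error, open triangles are upper bounds from 0 counts, n marks genes at or under 3 counts in both libraries, and the dotted line is 100%. Passaged values step down from HOXB2 to HOXB6 on days 5 and 7, whereas NP-IWP2 values for these genes on those days lie between 23.2% and 94.5%.

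NP-IWP2 cells were then set against NP-ctrl cells in the same way. Members lower than in NP-ctrl cells by at least 1 on the log2(FPKM + 1) scale numbered 4 on day 3 (0.858% of all genes), 1 on day 5 (HOXB6, 1.55%), 6 on day 7 (4.28%) and 6 on day 10 (5.64%). These counts too come from a contrast that chose the cluster. On day 3, the only library taken while IWP2 was present, HOXB2 stood at 37.3% of NP-ctrl (33.8 to 41.2), HOXB3 at 58.6% (52.1 to 65.8), HOXB4 at 31.3% (19.5 to 48.6), HOXB5 at 11.5% (4.06 to 26.4) and HOXB6 at 4.63% (0.546 to 17.6).

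By day 5 the same genes stood at 84.2% (80.1 to 88.6), 68.5% (64.5 to 72.6), 94.5% (85.1 to 105), 57.3% (51.2 to 64.0) and 23.2% (20.7 to 26.0). HOXB2, HOXB4, HOXB5 and HOXB6 had thus come closer to NP-ctrl from day 3 to day 5, and HOXB6 stayed at 26.3% (23.4 to 29.4) on day 7 and 24.0% (19.8 to 29.0) on day 10. HOXB2 stood at 55% on day 7 and 36% on day 10, HOXB4 at 46.9% and 28.7%, and HOXB5 at 37.3% and 20%. HOXB3 had 31.6% and 39.6%, so HOXB2 to HOXB5 were all further below NP-ctrl than on day 5. HOXB8 was at 3.12% (0.835 to 8.24) on day 7 and 12.3% (6.29 to 22.1) on day 10. Over days 5, 7 and 10 rho of the log2 ratio with position was -0.45 over 8 genes, and by single days it ran from -0.10 on day 5 to -0.93 on day 7.

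The make-up of the cluster's counts differed between the arms. In NP-ctrl cells HOXB6 to HOXB9 held 1.88% of the cluster's counts on day 3 (Wilson 95% interval 1.45 to 2.45), 18.0% on day 5 (17.2 to 18.7), 19.0% on day 7 (18.1 to 19.8) and 13.2% on day 10 (12.3 to 14.2). In NP-IWP2 cells they held 0.198% (0.0543 to 0.719), 6.33% (5.74 to 6.97), 12% (11 to 13.1) and 9.43% (8.22 to 10.8). In passaged cells they held 0 of 1568 counts on day 3, 0.289% on day 5 (0.132 to 0.629), 0.152% on day 7 (0.0268 to 0.854) and 0 of 1061 on day 10. HOXB2 and HOXB3 made up 92.4% to 97.0% of the cluster's counts in every passaged library, and 59.6% to 72.7% in the static libraries of days 7 and 10 and the NP-ctrl library of day 5. They held 74.4% in NP-IWP2 cells of day 5. On day 3 the static shares were 91.2% in NP-ctrl and 95.8% in NP-IWP2 cells, near the passaged share.

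Neighbouring members had like profiles. Over the 15 libraries Pearson's r of log2(FPKM + 1) between genes next to each other was 0.28 for HOXB1 and HOXB2 and 0.90 to 0.97 for the 6 pairs from HOXB2 and HOXB3 to HOXB7 and HOXB8. Between HOXB2 and HOXB8 it was 0.36. The points share libraries of 1 time course, so these are descriptions with no p.

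Transcripts around the cluster were read from the same table. Of 26 other genes within 200 kilobases, 11 had no count in any library and 8 passed the filter. Among them HOXB-AS1, HOXB-AS2 and HOXB-AS3 are antisense transcripts within the cluster. From day 3 to day 5 in the static arms HOXB-AS2 rose by 5.50 (SE 0.61, edgeR adjusted p 8.63e-05), HOXB-AS3 by 4.47 (SE 1.00, edgeR adjusted p 0.00974) and HOXB-AS1 by 1.13 (SE 0.32, edgeR adjusted p 0.033) on the log2 scale. HOXB-AS1 did not pass when any of the 4 libraries of days 3 and 5 was left out, and it fell by 2.04 from day 5 to day 7 (SE 0.33, edgeR adjusted p 0.00373), a call that ended without the NP-IWP2 library of day 5. HOXB-AS3 did not pass from day 3 to day 5 without the NP-ctrl library of day 3 or the NP-IWP2 library of day 5. It had passed the filter only through NP-ctrl libraries of day 5 and later.

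HOXB-AS1 starts within HOXB2, and shares exonic bases with HOXB2 and HOXB3. Its FPKM in passaged cells was 5.25, 4.41, 1.93 and 5.06 on days 3, 5, 7 and 10, against 5.45, 10.4, 2.66 and 2.38 in NP-ctrl cells. Within passaged cells it was thus lowest on day 7, as HOXB2 and HOXB3 were. As a share of NP-ctrl it stood at 96.4% on day 3 (74.5 to 125), 42.3% on day 5 (33.3 to 53.2), 72.3% on day 7 (47.7 to 109) and 212% on day 10 (151 to 302). HOXB2 stood at 37.1% on day 5 and 40.3% on day 10. The fitted arm difference over the 4 days was 0.00 on the log2 scale (edgeR adjusted p 1). HOXB-AS2 had an FPKM of 0.44, 12.6, 9.82 and 10.8 in NP-ctrl cells and 0.61, 0.54, 0.08 and 0.31 in passaged cells, and its fitted difference was -3.87 (SE 1.015, edgeR adjusted p 0.0568). HOXB-AS3 was lower in passaged cells by -4.86 (SE 0.89, edgeR adjusted p 0.0127), from 0, 5, 0 and 0 counts against 3, 44, 36 and 28. It reached an FPKM of 1 only in NP-ctrl cells (1.47, 1.42 and 1.09 on days 5, 7 and 10). HOXB-AS3 also shares exonic bases with HOXB3, HOXB5 and HOXB6, and strand use in counting is not known. It thus entered through the arm where it was high, and this p-value is not read as evidence.

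HOXB13 lies beyond HOXB9 at 48724763 to 48728750, apart from the rest of the cluster, and had another course in time. Its counts were 95, 205 and 320 on days 0, 1 and 2 and 297, 127, 76 and 51 in NP-ctrl cells on days 3, 5, 7 and 10. They were 193, 145, 80 and 55 in NP-IWP2 cells and 132, 36, 9 and 3 in passaged cells. On day 0 it thus had 95 counts where HOXB1 to HOXB9 had 3 in all. It was lower in passaged than in NP-ctrl cells by -2.11 on the log2 scale (SE 0.45, edgeR adjusted p 0.0265), and leaving out day 5, 7 or 10 ended the call. PRAC1 and PRAC2, next to HOXB13, reached an FPKM of 42.6 (day 0) and 18.8 (NP-ctrl, day 3).

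**Figure D5:**
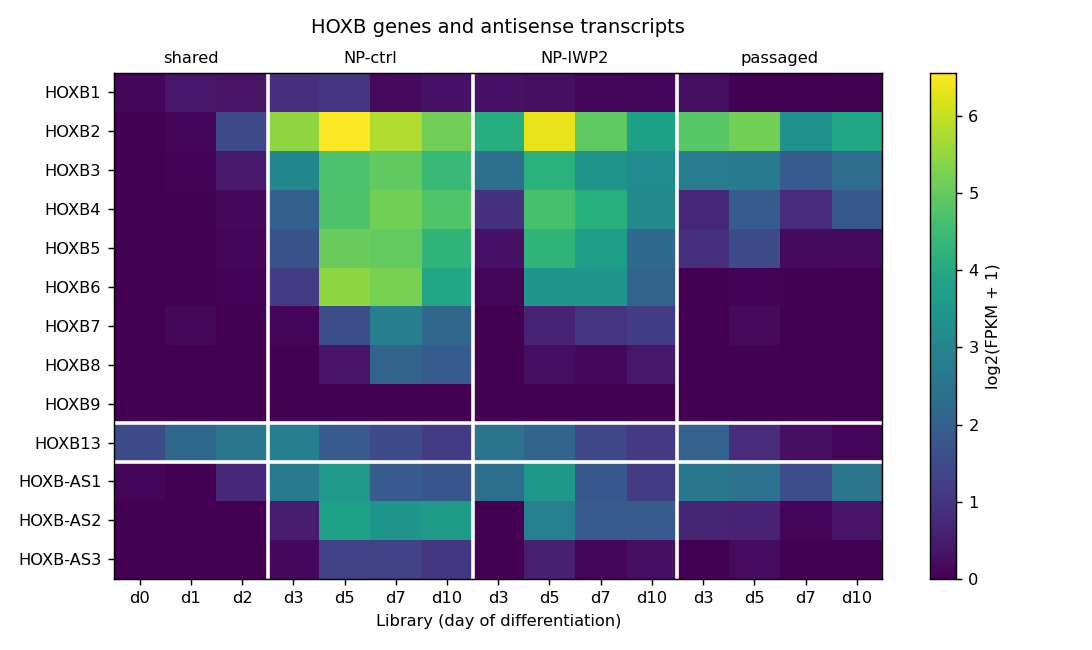
Colour shows log2(FPKM + 1) of HOXB1 to HOXB9 in cluster order, HOXB13 and 3 antisense transcripts (rows) in the 15 libraries (columns, day of differentiation within each arm). The filled block reaches HOXB8 in NP-ctrl cells and ends at HOXB5 in passaged cells, while HOXB-AS1 is present in all passaged libraries, lowest on day 7, and HOXB13 is present from day 0.

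The HOXC and HOXD clusters stayed near 0. Of the 9 HOXC genes 1 passed the filter (HOXC4), and of the 9 HOXD genes none did. The most counts any library held over a whole cluster were 118 for HOXC and 20 for HOXD, against 10091 for HOXB. HOXA13, of the HOXA cluster, and HOXC4 were lower in passaged than in NP-ctrl cells, by -4.04 (SE 0.83, edgeR adjusted p 0.029) and -5.06 (SE 1.01, edgeR adjusted p 0.019) on the log2 scale. Both reached an FPKM of 1 only in NP-ctrl libraries (HOXA13 1.31 on day 7, HOXC4 2.37 and 1.1 on days 7 and 10). They entered the test through the arm where they were high, so these p-values are not read as evidence.

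These arm tests used edgeR on 12 libraries, from day 3 on, and blocked by day. They called 4.4% of all genes for passaged against NP-ctrl cells (median log2 change of all genes -0.00), 1.33% for passaged against NP-IWP2 cells (median 0.02) and 0.0189% for NP-IWP2 against NP-ctrl cells (median -0.01). Of the listed HOX, antisense, cofactor, CDX, retinoic acid and Polycomb genes, cell type markers not counted, 9 differed between passaged and NP-ctrl cells and 4 between passaged and NP-IWP2 cells. Among the 9, HOXA13, HOXC4 and HOXB-AS3 had passed the filter only through NP-ctrl libraries. None differed between NP-IWP2 and NP-ctrl cells, where 1009 of all genes had an unadjusted p under 0.05 and DESeq2 called 1 listed gene. Without the day 7 libraries 1 of the 9 (ALDH1A1) and none of the 4 still passed. Leaving out day 5 gave 3 and 1 listed genes, leaving out day 10 gave 5 and 2, and leaving out day 3 gave 16 and 8.

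Among CDX factors, which activate HOX genes in the posterior embryo, 1 of the 3 differed (list median -1.74). CDX2 was lower in passaged than in NP-ctrl cells by -4.41 (SE 0.72, edgeR adjusted p 0.00791). Its FPKM was 12.4 on day 1 and 5.90 on day 2, then 2.55, 1.38, 0.71 and 1.42 in NP-ctrl cells on days 3, 5, 7 and 10. It was 0.63, 0.06, 0.07 and 0.20 in NP-IWP2 cells and 0.44, 0.06, 0 and 0 in passaged cells. CDX2 was thus low from day 3 in both of those arms. The difference between NP-IWP2 and NP-ctrl cells was -3.14 with an edgeR adjusted p of 0.361, and it passed with DESeq2, with no filter, and in a fit of those arms alone (lowest adjusted p 1.37e-05). Without day 5 or day 7 the difference for passaged cells did not pass.

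Of 17 genes of the retinoic acid pathway 16 were tested, and 1 was higher and 1 lower in passaged than in NP-ctrl cells (list median -0.16). RARB, a retinoic acid receptor that is itself induced by retinoic acid, stood at an FPKM of 8.78, 25.3, 6.13 and 5.08 on days 3, 5, 7 and 10 after passage. NP-ctrl cells had 4.03, 4.37, 0.78 and 0.54, so that RARB was higher by 2.39 on the log2 scale (SE 0.39, edgeR adjusted p 0.00791). ALDH1A1 was lower by -5.17 (SE 0.61, edgeR adjusted p 0.00127). ALDH1A2, the main retinoic acid synthesising enzyme of early embryos, reached an FPKM of 9.28 in the day 5 passaged library, and NP-ctrl and NP-IWP2 cells had 0.53 and 0.86 that day. It was higher in passaged than in NP-IWP2 cells by 2.62 (SE 0.54, edgeR adjusted p 0.042) and missed the threshold against NP-ctrl cells (2.14, edgeR adjusted p 0.0512). RARB and ALDH1A2 were thus highest on day 5 in passaged cells. In that library HOXB4, HOXB5 and HOXB6 stood at 11%, 5.66% and 0.117% of NP-ctrl. Within the passaged arm HOXB2, HOXB4 and HOXB5 were also highest on day 5 (FPKM 34.6, 2.78 and 1.83). HOXB3 had 5.78 on day 3 and 5.60 on day 5. A link of these genes with the HOXB levels was not tested.

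Of 9 HOX cofactors all were tested (list median -0.26), and MEIS1 was higher in passaged than in NP-ctrl cells by 0.63 (SE 0.15, edgeR adjusted p 0.0372). Against NP-IWP2 cells MEIS1 was higher by 0.82 (SE 0.15, edgeR adjusted p 0.0264), and PKNOX2 was lower by -1.0 (SE 0.14, edgeR adjusted p 0.00844). The cofactors were present where the HOXB genes were low, with a summed FPKM of 114 to 187 in passaged and 133 to 170 in NP-ctrl cells. Of 16 Polycomb and trithorax genes 1 differed (list median 0.08). KDM6B, which removes the methyl mark that Polycomb sets on histone H3, was lower in passaged than in NP-ctrl cells by -1.10 (SE 0.21, edgeR adjusted p 0.0145). KDM6A, of the same list and family, did not pass and lay on the other side. Its FPKM in passaged cells was 2.16, 7.51, 10.1 and 13.1 on days 3, 5, 7 and 10, against 2.0, 7.03, 4.77 and 4.07 in NP-ctrl cells.

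Markers of other cell types also differed between the arms. The summed FPKM of 7 hepatic and yolk sac endoderm markers over days 3 to 10 spanned 0.87 to 4294 for NP-ctrl, 1.30 to 1261 for NP-IWP2 and 1.80 to 19.7 for passaged cells. That of 7 epicardium and mesothelium markers spanned, for the arms as ordered above, 15.9 to 179, 11.4 to 115 and 28.6 to 84.1, and that of 7 fibroblast markers from 166 to 4521, 152 to 1335 and 123 to 457. Sums of 8 cardiomyocyte markers had the opposite order, with highest values of 641, 2352 and 4014. Endothelium markers (7 genes) summed to 125 to 172, 109 to 129 and 24.1 to 125. Blood markers (6 genes) stayed at 0.50 to 2.04, 0.65 to 1.25 and 0.26 to 6.15, with HBZ at 0 in all NP-ctrl and passaged libraries of these days, and neural markers (6 genes) at 0.53 to 7.03, 0.28 to 14.3 and 0.44 to 2.79. Their courses from day 7 to day 10 in the static arms differed by list, in a step where 158 of the 21206 genes tested rose. Of 7 endoderm markers 5 rose (list median 1.72), AFP by 3.90 and APOB by 2.62 on the log2 scale (edgeR adjusted p 0.000153 and 0.00146). POSTN was the 1 fibroblast marker to rise, by 2.42 (edgeR adjusted p 0.00635, list median 0.06). Of the epicardium markers 1 rose, TBX18 by 2.03 (edgeR adjusted p 0.00477, list median 0.12). No HOXB member passed, with changes from -1.43 for HOXB6 to 0.54 for HOXB1. The part of these cells in the HOXB differences was not tested.

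Between passaged and NP-ctrl cells the endoderm, epicardium, fibroblast and cardiomyocyte lists gave 4, 4, 3 and 2 genes past the edgeR threshold. The cardiomyocyte genes MYH7 and TNNC1 were higher and the genes of the other 3 lists lower. None of the endothelium, blood or neural markers passed.

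The genes outside the HOX clusters whose profile over the 15 libraries was most like the mean standardised profile of the 8 members above the filter were HNF4A (Pearson's r 0.948), LTBR (0.947), SOAT2 (0.945), EPAS1 (0.941), PITX1 (0.941), RAB37 (0.940), SIRT2 (0.938), DNAJC22 (0.937), GPA33 (0.935) and ST6GALNAC3 (0.935). HNF4A, a transcription factor of liver and endoderm, had an FPKM of 0.06, 3.88, 4.22 and 3.20 in NP-ctrl cells on days 3, 5, 7 and 10. It had 0.11, 1.71, 1.39 and 0.97 in NP-IWP2 cells and at most 0.02 in passaged cells. EPAS1, a hypoxia-inducible factor, stood on day 5 at 43.5 (NP-ctrl), 26.1 (NP-IWP2) and 3.88 (passaged). Every one of these points is a library of the same time course, and likeness here means only a shared order of libraries.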

How the data were processed

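Bulk RNA sequencing of 15 libraries was analysed, 1 per group. The authors deposited 1 table with raw counts per gene and FPKM values per gene. The tools named in the submitters' processing notes are cutadapt 1.9.1, HISAT2 2.0.1, HTSeq 0.6.1 and DESeq2, with build hg38. Their settings, strand included, are not given in the sources used here, and the labels name a long-read library kit, so the length scaling of the deposited FPKM carries that doubt. The deposited counts and FPKM were used as they stand.

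Levels are FPKM, with exact 95% intervals from the counts. These and the Wilson intervals cover counting error only. Counts of 0 were set to a floor of 3 for bounds. The tests took the 21206 genes whose FPKM reached 1 in any library. Day steps were tested with edgeR 4.0.16 (quasi-likelihood, TMM) on the 8 static libraries with arm as a block, and arms on 12 libraries with day as a block, in R 4.3.3, with a threshold of 0.05 on Benjamini-Hochberg adjusted p. With 1 library per group, p-values measure the spread of day-by-arm values within 1 series of cultures, which may be technical. Differences of single days are on the log2(FPKM + 1) scale. The test was tested on simulated data first, and the outcome is not given here. Alternatives were DESeq2 1.42.0, limma 3.58.1, RLE factors, no filter, other sets of libraries, each library or day left out, other pseudocounts, thresholds and onset rules.

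All 9 members are named, then genes of the lists that passed a test, genes within 200 kilobases, and the 10 protein-coding genes with the most alike profile. Genes whose values are given without a pass, such as CYP26A1 and CDX1, were chosen after their values were seen. Some results of the HOXA cluster are not reported here. The members and lists were chosen with earlier results of these data known.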

Additional observations from a re-analysis of the deposited data

Results flagged for a closer look

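HOXB3 and HOXB5 differed between the arms in the direction of their course from day 3 to day 10. In passaged cells the HOXB3 level on day 10 was 0.712 times that on day 3 (95% interval 0.629 to 0.806), whereas it was 2.77 times in NP-ctrl cells and 1.87 times in NP-IWP2 cells. For HOXB5 the ratio was 0.163 in passaged cells (0.041 to 0.481), from 4 counts on day 10 and 22 on day 3, and 8.89 and 15.5 in NP-ctrl and NP-IWP2 cells. With 1 library per arm and day the difference was not tested.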

How the results depend on the processing

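No paired analysis was possible because each group had 1 library, so that no replicate numbers could pair samples beyond the blocks for arm or day that the fits already held. Of 312 alternative values of the members' log2 changes between days, 279 kept their direction and side of the threshold, 15 lost the call, 7 gained one and 11 reversed. The cause was not tested for any of these changes.

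Members that rose from day 3 to day 5 numbered 7, against 4 with limma and 3 with all 12 libraries, and 6 to 7 with a library left out. From day 5 to day 7, 1 fell, against 0 with limma and with 12 libraries and 0 to 1 with a library left out. From day 7 to day 10, 0 fell, against 1 with DESeq2, 3 with no filter and 0 to 1 with a library left out. Listed genes that differed between passaged and NP-ctrl cells numbered 9, against 17 with DESeq2, 3 with limma, 19 with no filter, 1 with those arms alone and 1 to 16 with a day left out. For passaged against NP-IWP2 cells 4 became 11 with DESeq2, 1 with limma, 13 with no filter and 0 to 8 with a day left out. For NP-IWP2 against NP-ctrl cells 0 became 1 with DESeq2, 2 with no filter, 2 with those arms alone and 0 with any day left out.

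With a pseudocount of 0.1 the members lower on day 3 in passaged cells went from 2 to 4, and on day 5 in NP-IWP2 cells from 1 to 3. With a difference of at least 2 the counts became 0 and 3 for passaged cells on days 3 and 5, and 0, 0 and 1 for NP-IWP2 cells on days 3, 7 and 10. The rank correlation of onset with position in NP-ctrl cells went from 0.49 to 0.79, 0.90, 0.93 and 0.96 under the other onset rules, and in passaged cells from 0.95 to 0.77, 0.87 and 0.71. In NP-IWP2 cells it lay between 0.87 and 0.97. The rank correlation of the ratio to NP-ctrl with position went from -0.76 to -0.31, -0.26 and -0.62 on days 3, 5 and 7 alone in passaged cells, and from -0.45 to -0.60, -0.10 and -0.93 in NP-IWP2 cells.

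For the log2 changes that reversed, none of which was called, the ranges with a library left out were as follows. From day 3 to day 5 HOXB1 ran from -0.46 (without NP-ctrl day 5) to 0.40, and was -0.59 with 12 libraries. From day 5 to day 7 HOXB3 ran from -0.67 to 0.06, HOXB4 from -0.74 to 0.68 and HOXB5 from -0.99 to 0.27, each highest without NP-IWP2 day 5. HOXB3 was also 0.03 without NP-IWP2 day 7, and HOXB6 ran from -0.36 to 0.08, highest without NP-ctrl day 7. From day 7 to day 10 HOXB1 ran from -0.28 (without NP-ctrl day 7) to 1.12 and HOXB8 from -0.57 (without NP-IWP2 day 7) to 2.27. HOXB7 ran from -0.65 to 0.19 (without NP-ctrl day 7) and was 0.15 without NP-ctrl day 10. HOXB1, HOXB7 and HOXB8 rest on few counts, and HOXB9 was not measurable at this depth.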

Other observations

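Within passaged cells the 3' genes were higher on day 10 than on day 7. The ratio of the level on day 10 to that on day 7 was 1.54 for HOXB2, 1.52 for HOXB3 and 3.26 for HOXB4 (95% interval 2.02 to 5.44), while HOXB5 had 4 counts in both libraries. The same 3 genes were lower on day 10 than on day 7 in both static arms. With 1 library per day these are values with no test.

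CYP26A1, the enzyme that breaks down retinoic acid, had an FPKM of 32.4 on day 2. On day 3 it stood at 0.12 after passage, 4.23 in the NP-ctrl arm and 18.9 in the NP-IWP2 arm. On that day HOXB2 stood at 37.3% of its NP-ctrl level in NP-IWP2 cells and at 64.5% in passaged cells. A link of HOXB2 with CYP26A1 was not tested. CDX1 had an FPKM of 30.2 on day 1, the day on which HOXB1 first passed 10 counts.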
